A study of Homo sapiens with 4 samples.

Results

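The BCL2 family was examined across 4 libraries of the human ovarian clear cell carcinoma line TOV21G. Its members were the 10 rows of the deposited expression table that carry the symbols PMAIP1, BBC3, BCL2L11, BMF, BID, BAX, BAK1, MCL1, BCL2L1 and BCL2, of 26255 genes in all. One culture received As2O3 (arsenic trioxide, which binds protein thiols and is in clinical use for a form of leukaemia) at 1 µM for 48 h. Another received GSK458 (omipalisib, an inhibitor of the growth kinases PI3K and mTOR) at 0.1 µM for 48 h. The combination culture received both drugs at these doses for 48 h, and the control received no drug. The control's time in culture is not given in its own label.

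BCL2 family proteins decide whether the outer mitochondrial membrane is opened, the step that releases cytochrome c and starts the caspase cascade. BAX and BAK1 are the effectors that form the pore. The pro-survival proteins MCL1, BCL-XL (from BCL2L1) and BCL2 hold them back, and the BH3-only proteins are stress sensors that bind and neutralise the pro-survival proteins or activate the effectors directly. Transcription is 1 of several controls on these proteins. MCL1, NOXA (from PMAIP1) and BIM (from BCL2L11) are also governed by protein turnover, and BAX by its location, none of which an RNA measurement sees.

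Values are FPKM, fragments per kilobase of transcript per 1000000 mapped fragments, so levels of different genes can be set side by side. There was 1 library per group and no replicate, so no value below has a replicate error or a test, and each difference describes these libraries. The absolute depth is unknown. Judged from how low FPKM values are spaced, the treated libraries had 85.8% to 109% of the control's depth. This assumes that each library was scaled by its own mapped total, which was not tested. Differences are given as the difference in log2(FPKM + 1), a scale that understates differences of low genes. A gene was counted as apart when the difference reached 1, which is 2-fold, and each comparison took in the 12260 genes whose mean was 1 FPKM or more. All 10 members passed that filter. Of 8 markers of epithelium and clear cell carcinoma, 6 or 7 reached 1 FPKM in each library. The epithelial keratins KRT8 and KRT18 stood at 166 to 241 FPKM in the 4 libraries. NAPSA, a clear cell carcinoma marker, was at 0.665 to 1.06 FPKM and the epithelial adhesion gene EPCAM at 0.608 to 1.71 FPKM. The serous markers WT1, ESR1 and PGR summed to at most 0.134 FPKM. Of the markers of other cell types, those of endothelium summed to at most 0.0786 FPKM. The 6 fibroblast markers summed to 5.98 FPKM with As2O3, 2.65 with GSK458, 2.40 with both drugs and 4.18 in the control, with LUM at 0 throughout. The 6 immune markers summed to 4.38, 1.35, 2.93 and 1.18 FPKM in the same libraries, most of it CD68, and PTPRC and CD3E were at 0 in every library. In a bulk library, a higher level per cell and a larger share of expressing cells cannot be told apart.

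Across the family, the widest spreads between libraries were those of the BH3-only genes PMAIP1 and BMF, and the narrowest was that of the effector BAK1. PMAIP1 was at least 2-fold higher with As2O3 than in the control, and BMF was at least 2-fold higher with GSK458, alone and with As2O3, than in the control. With As2O3, 9 of 10 members were above the control, as were 51.2% of all genes tested. The median difference was 0.49, against 0.01 for all genes tested. Of the 10 members 1 was at least 2-fold higher and 0 lower, where 2.07% of all genes were that much higher and 1.41% lower. With GSK458, 4 members were above the control and 6 below (49.4% and 50.5% of all genes), with a median of −0.07 against −0.01 for all genes. Here 1 member was at least 2-fold higher and 0 lower (2.35% and 3.87% of all genes). With both drugs, 7 members were above the control (48.8% of all genes), with a median of 0.10 against −0.01. In that comparison 1 was at least 2-fold higher and 0 lower (3.25% and 4.31% of all genes). With each library rescaled to the same sum, 5 members were above and 5 below the control in the combination, since BID (−0.03) and BAX (−0.03) changed sign. In that setting 44.1% of all genes were above the control. The median of all genes moved to −0.07, which 7 members exceeded. With 10 genes, 1 called gene describes that gene and not the family.

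**Figure D1:**
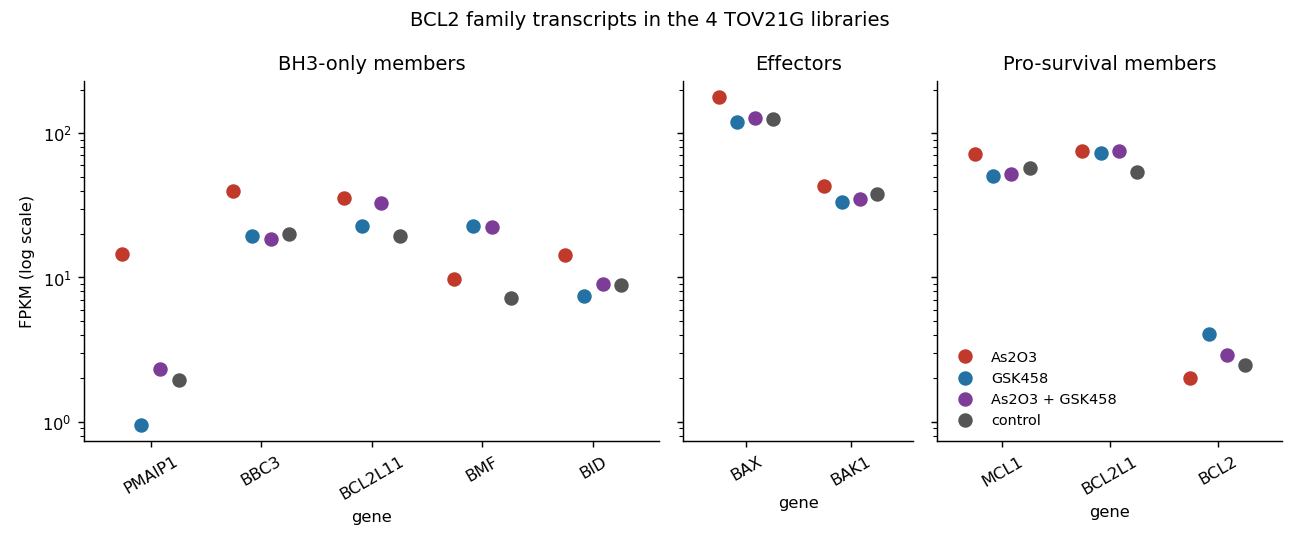
FPKM (log axis) of the 10 members in the As2O3, GSK458, combination and control libraries, 1 point per library, with BH3-only, effector and pro-survival members in separate panels. PMAIP1 ranges over 15.3-fold and BMF over 3.15-fold between libraries, while BAX and BAK1 range over 1.49-fold and 1.27-fold.

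**Figure D2:**
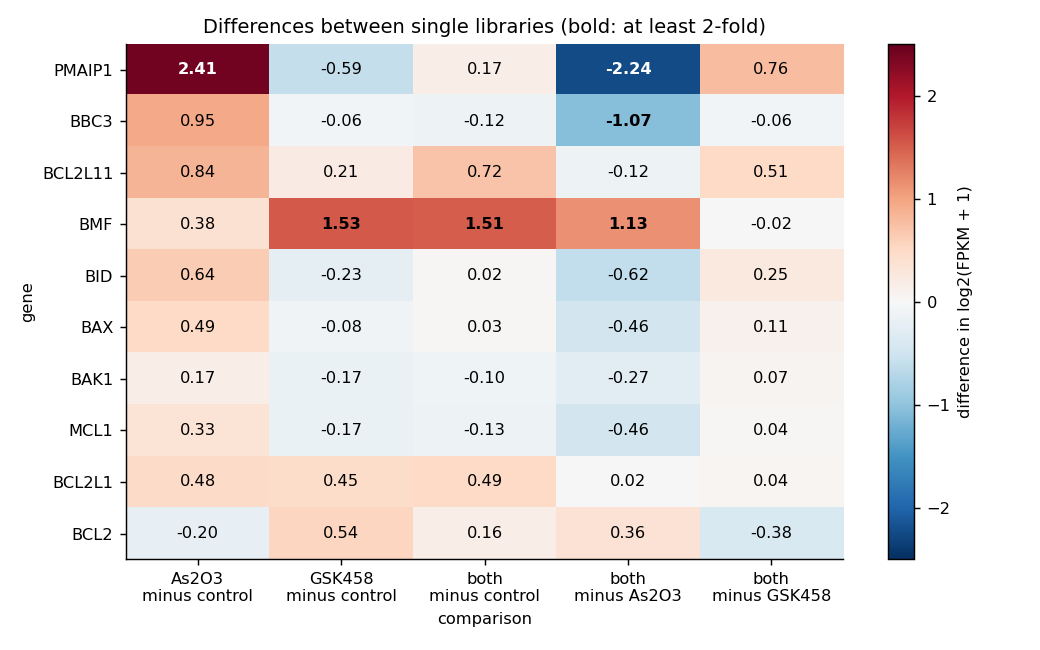
Differences in log2(FPKM + 1) of each member (rows) in 5 comparisons of single libraries (columns), with the value printed in each cell and bold where at least 2-fold. The As2O3 column is positive for every member except BCL2 (−0.20), and BMF leads the GSK458 column at 1.53.

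PMAIP1 encodes NOXA, a BH3-only protein that binds mainly MCL1 and is induced by the transcription factors of the integrated stress response. Its level was 14.6 FPKM with As2O3, 0.953 FPKM with GSK458, 2.32 FPKM with both drugs and 1.95 FPKM in the control. Only the As2O3 library stood high. It was 7.51 times the control, a log2 difference of 2.41, and 0.228% of all genes were at least as far above the control. With GSK458 alone PMAIP1 was at 0.489 of the control level. On the log2(FPKM + 1) scale this was −0.59, short of the 2-fold mark, and 10% of all genes were at least as far below. The combination did not carry the As2O3 level. It was 0.158 of the level with As2O3 alone (−2.24) and 1.19 times the control (0.17). Against GSK458 alone, the combination held 2.43 times as much PMAIP1 (0.76), and 1.29% of all genes were at least as far above. This last difference passed the 2-fold mark with a pseudocount of 0.1 FPKM, at 1.20.

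The RefSeq promoter window of PMAIP1, which runs from 250 bases before to 50 bases after the annotated start, is shown because this gene had the largest difference of the family. It lies at chr18:59899746-59900045 on the + strand of GRCh38.p14, a different build from the hg19 named for the deposited values. It is rich in G and C (71.3%) with 42 CpG pairs. Capitals mark a cyclic AMP response half-site (TGACG, here on the minus strand) at positions −55 to −51, where −1 is the base just before the start.
PMAIP1: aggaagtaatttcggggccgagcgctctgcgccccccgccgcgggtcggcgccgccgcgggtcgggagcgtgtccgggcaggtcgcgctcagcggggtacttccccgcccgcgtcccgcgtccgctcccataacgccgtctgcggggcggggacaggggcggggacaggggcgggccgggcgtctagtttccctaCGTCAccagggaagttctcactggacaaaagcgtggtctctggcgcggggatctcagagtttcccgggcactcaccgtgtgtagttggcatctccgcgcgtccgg

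The genes of the immediate early response, which can follow a stimulus or the handling of a culture, were also highest in the As2O3 library. The 6 listed genes (FOS, FOSB, JUNB, EGR1, IER2 and NR4A1) summed to 166 FPKM with As2O3, 48.0 FPKM with GSK458, 70.2 FPKM with both drugs and 54.3 FPKM in the control. Of the 5 with a mean of at least 1 FPKM, all were above the control with As2O3 and 3 at least 2-fold. Of all genes tested, 51.2% were above the control and 2.07% at least 2-fold higher. The part of handling in the differences of PMAIP1 and of the other members highest with As2O3 was not tested.

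BBC3 encodes PUMA, a BH3-only protein that binds all the pro-survival members. It stood at 39.8 FPKM with As2O3, 19.2 FPKM with GSK458, 18.4 FPKM with both drugs and 20.1 FPKM in the control. The 3 libraries other than As2O3 lay within a narrow range, and As2O3 alone was higher. The ratio of As2O3 to control was 1.98 (0.95), just short of 2-fold, and 2.38% of all genes were at least as far above. The combination was at 0.463 of As2O3 alone (−1.07), which passed the mark. It passed neither with a pseudocount of 5 FPKM (−0.94) nor, by a small margin, with upper-quartile scaling. Relative to GSK458 the combination differed by −0.06.

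BCL2L11 encodes BIM, a strong activator of BAX and BAK1 whose gene is known as a target of FOXO factors. It was at 35.8 FPKM with As2O3, 22.8 FPKM with GSK458, 32.8 FPKM with both drugs and 19.5 FPKM in the control. Both libraries that held As2O3 stood above both that did not. As2O3 was 1.83 times the control (0.84), and the combination was 1.44 times GSK458 alone (0.51), a pair that shares no library with the first. These differences were reached or exceeded by 3.27% and 3.05% of all genes. GSK458 alone differed from the control by 0.21. In the GENCODE 29 annotation an exon of BCL2L11 shares positions with the long RNA MIR4435-2HG on the opposite strand. That gene was at 48.6, 33.8, 30.2 and 30.1 FPKM with As2O3, with GSK458, with both drugs and in the control. Libraries were made with a stranded kit per the labels, but no source used here states the strand setting of the quantification, so reads from the shared positions cannot be told apart.

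BMF, named for its ability to modify BCL2 function, is a BH3-only protein tied to the cytoskeleton through the dynein light chain DYNLL2. It was at 9.69 FPKM with As2O3, 22.8 FPKM with GSK458, 22.5 FPKM with both drugs and 7.24 FPKM in the control. Both libraries that held GSK458 were high and nearly equal, and both without it were low. GSK458 was 3.15 times the control (1.53), and 0.612% of all genes were at least as far above. The combination was 2.32 times As2O3 alone (1.13), in libraries that share none with that pair. The combination was 3.10 times the control (1.51) and differed from GSK458 alone by −0.02. As2O3 alone differed from the control by 0.38. With a pseudocount of 5 FPKM the difference between the combination and As2O3 was 0.90, below 2-fold. The annotation places the antisense RNA BMF-AS1 on exon positions of BMF, and reads from there cannot be assigned to either gene without a stated strand setting.

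BMF is shown with the upstream of its RefSeq windows because it was the member with the largest difference under GSK458. The window lies at chr15:40108830-40109129 on the minus strand of GRCh38.p14 and holds 31 CpG pairs with 65.0% G and C. Capitals mark the same half-site, TGACG, on the strand of the gene at positions −57 to −53. The FOXO motif GTAAACA was not among its letters, which says nothing about the factor beyond this window.
BMF: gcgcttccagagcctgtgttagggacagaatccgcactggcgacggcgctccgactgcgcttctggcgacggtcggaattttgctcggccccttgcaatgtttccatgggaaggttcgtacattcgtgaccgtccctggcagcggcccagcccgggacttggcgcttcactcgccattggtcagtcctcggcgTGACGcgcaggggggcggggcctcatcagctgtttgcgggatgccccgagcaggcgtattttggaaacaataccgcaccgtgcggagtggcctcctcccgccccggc

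BID links death receptors to mitochondria, since caspase 8 cleaves it into its active form. It stood at 14.4 FPKM with As2O3, 7.42 FPKM with GSK458, 9.02 FPKM with both drugs and 8.87 FPKM in the control. The As2O3 library was the high one, at 1.62 times the control (0.64), a difference reached by 6.17% of all genes. The combination was at 0.626 of As2O3 alone (−0.62) and differed from the control by 0.02. BID was under 2-fold apart in each of the 7 comparisons.

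Of the effectors, BAX was the most abundant member in every library. It was at 177 FPKM with As2O3, 118 FPKM with GSK458, 128 FPKM with both drugs and 125 FPKM in the control. The largest of its differences from the control was 0.49 with As2O3, which 10.3% of all genes reached. BAK1, its partner with a similar role at the mitochondrial membrane, was at 42.7, 33.5, 35.2 and 37.8 FPKM in the same order. BAK1 varied least of the 10 members, and its differences from the control lay between −0.17 and 0.17. The ratio of BAX to BAK1 was 4.13 with As2O3, 3.53 with GSK458, 3.63 with both drugs and 3.31 in the control. The annotation also holds the pseudogenes BAK1P1 and BAK1P2, and how reads shared with them were counted is unknown.

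Among the pro-survival members, MCL1, a short-lived guard that NOXA antagonises, was at 72.0 FPKM with As2O3, 50.6 FPKM with GSK458, 51.9 FPKM with both drugs and 56.9 FPKM in the control. It was highest with As2O3 (0.33 above the control) and lower than the control in both libraries with GSK458 (−0.17 with GSK458 alone, −0.13 with both). BCL2L1 was at 74.8 FPKM with As2O3, 73.3 FPKM with GSK458, 75.6 FPKM with both drugs and 53.4 FPKM in the control. All 3 treated libraries stood at a like level above the control, with differences of 0.48, 0.45 and 0.49. BCL2L1 was the only member above the control by a near-equal amount under each treatment, and between 10.9% and 13.8% of all genes reached those values in each comparison. The annotation places the antisense RNA ABALON on shared exon positions with BCL2L1. ABALON was at 47.7 FPKM with As2O3, 47.8 FPKM with GSK458, 44.5 FPKM with both drugs and 33.3 FPKM in the control. Its treated values too all stood above its control value, and without a stated strand setting the reads of the pair cannot be told apart.

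BCL2, the founding member of the family, was scarce throughout. It was at 2.02 FPKM with As2O3, 4.06 FPKM with GSK458, 2.89 FPKM with both drugs and 2.48 FPKM in the control. It was the 1 member below the control with As2O3 (−0.20) and was highest with GSK458 (0.54), where 10.1% of all genes were at least as far above. BCL2 made up 1.36% of the summed pro-survival FPKM with As2O3, 3.18% with GSK458, 2.22% with both drugs and 2.2% in the control.

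In each of the 4 libraries BAX came first in the order of levels, then BCL2L1 and MCL1 in either order, then BAK1. The ratio of MCL1 to BCL2L1 was 0.963 with As2O3, 0.690 with GSK458, 0.687 with both drugs and 1.07 in the control. With no replicate, neighbours this close in the order cannot be said to differ. Below BAK1 the order changed with treatment. BBC3 and BCL2L11 came next with As2O3 and in the control, BMF and BCL2L11 came next with GSK458 (22.77 and 22.76 FPKM), and BCL2L11 and BMF came next with both drugs. PMAIP1 was the lowest member with GSK458, with both drugs and in the control, and the seventh of 10 with As2O3.

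Summed over the 5 BH3-only genes, the level was 114 FPKM with As2O3, 73.1 FPKM with GSK458, 85.0 FPKM with both drugs and 57.7 FPKM in the control. All treated libraries were above the control. The 3 pro-survival genes summed to 149, 128, 130.5 and 113 FPKM in the same libraries. The ratio of BH3-only to pro-survival FPKM was therefore 0.769 with As2O3, 0.571 with GSK458, 0.652 with both drugs and 0.512 in the control. Leaving out PMAIP1, the ratio was 0.670, 0.564, 0.634 and 0.494. The effector sum divided by the pro-survival sum was 1.47 with As2O3, 1.19 with GSK458, 1.25 with both drugs and 1.45 in the control. The 2 libraries with GSK458 were below the other 2 in that ratio. BCL2L1 made up 47.3% of the pro-survival sum in the control and 58.0% with both drugs. These sums and ratios carry the limit given above on reads of BCL2L1, BCL2L11 and BMF from positions shared with other genes.

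The make-up of the BH3-only sum differed between the drugs. PMAIP1 took 12.8% of it with As2O3, 1.30% with GSK458, 2.73% with both drugs and 3.38% in the control. BMF took 8.48% with As2O3, 31.1% with GSK458, 26.4% with both drugs and 12.5% in the control. BBC3 took 34.8% with As2O3, 26.3% with GSK458, 21.7% with both drugs and 34.8% in the control. BCL2L11 held between 31.1% and 38.6% in every library. Levels of RNA do not give levels of protein, so these are shares of transcripts.

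**Figure D3:**
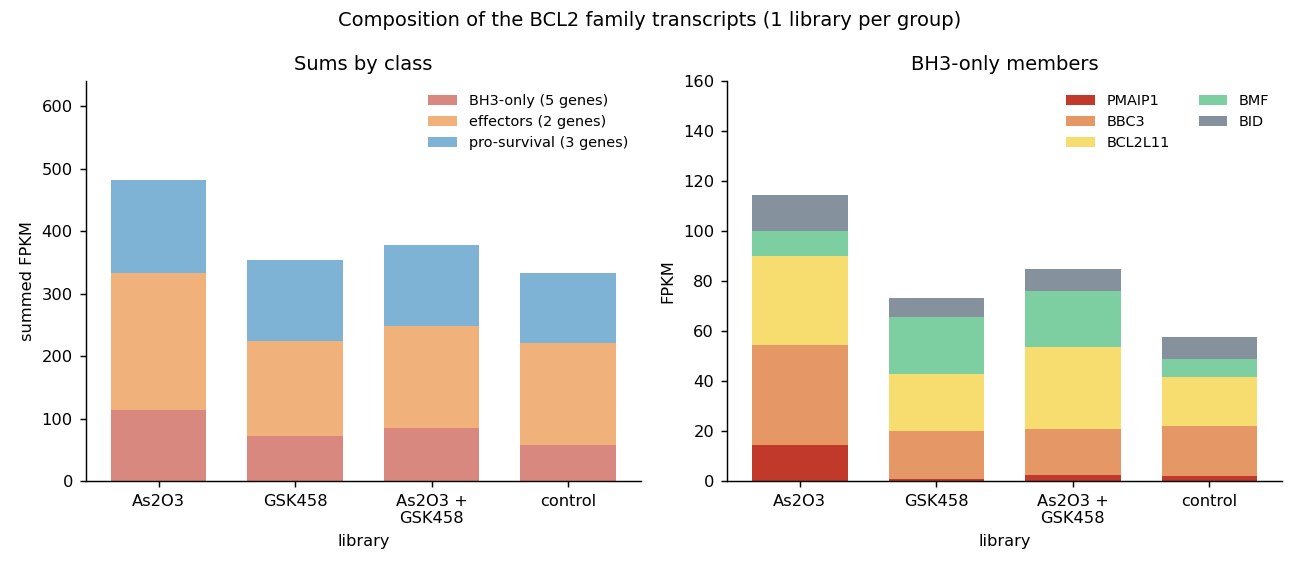
Stacked bars of summed FPKM in each library (1 library per bar, no error bars), by class of the family (left) and by BH3-only gene (right), on axes that start at 0. BH3-only transcripts sum to 114 FPKM with As2O3 and 57.7 FPKM in the control, and BMF fills 31.1% of the bar with GSK458.

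Each drug's difference could also be read in the presence of the other drug, from a pair of libraries that shares none with the first. For As2O3, the difference without GSK458 and the difference with it had the same sign in 8 of 10 members, and BBC3 and BMF were the exceptions. BMF was not one with each library rescaled to the same sum, where it was at 0.03 with GSK458 present and the median of all genes at 0.05. Set against GSK458 alone, the combination had 0 members at least 2-fold higher and 0 lower, where 0.644% of all genes were higher and 0.318% lower. The values with GSK458 present were 0.76 for PMAIP1, 0.51 for BCL2L11, 0.25 for BID, 0.11 for BAX and −0.38 for BCL2, and within 0.07 of 0 for the other 5. For GSK458, the sign was the same without and with As2O3 in 9 of 10 members, the exception being BCL2L11 (−0.12 with and 0.21 without As2O3). The share of all genes with the same sign was not computed, so these sign counts do not set the family apart. Between the combination and As2O3 alone, BMF was the 1 member that stood at least 2-fold higher and PMAIP1 and BBC3 were the 2 lower, where 2.28% of all genes were higher and 4.27% lower.

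The departure from additivity takes both single-drug differences from the control off that of the combination, and 0 means that log differences add up. It was below 0 in all 10 members, with a median of −0.39, while 50.4% of all genes were below 0 with a median of −0.0040. The same 4 libraries enter every member's departure, so the members are not 10 separate readings. The lowest were PMAIP1 (−1.64, with 0.53% of all genes at least as low) and BBC3 (−1.01, with 2.01%). The other 8 lay between −0.43 and −0.10. At 2-fold, 2 of 10 members departed downward and 0 upward, against 2.05% and 1.33% of all genes. With each library rescaled to the same sum, the median of all genes moved to 0.13, 9 members were below 0 (BAK1 at 0.03), and all 10 were below the median of all genes. BBC3 departed by less than 2-fold there (−0.89), and also with median-of-ratios scaling, upper-quartile scaling and a pseudocount of 5 FPKM.

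**Figure D4:**
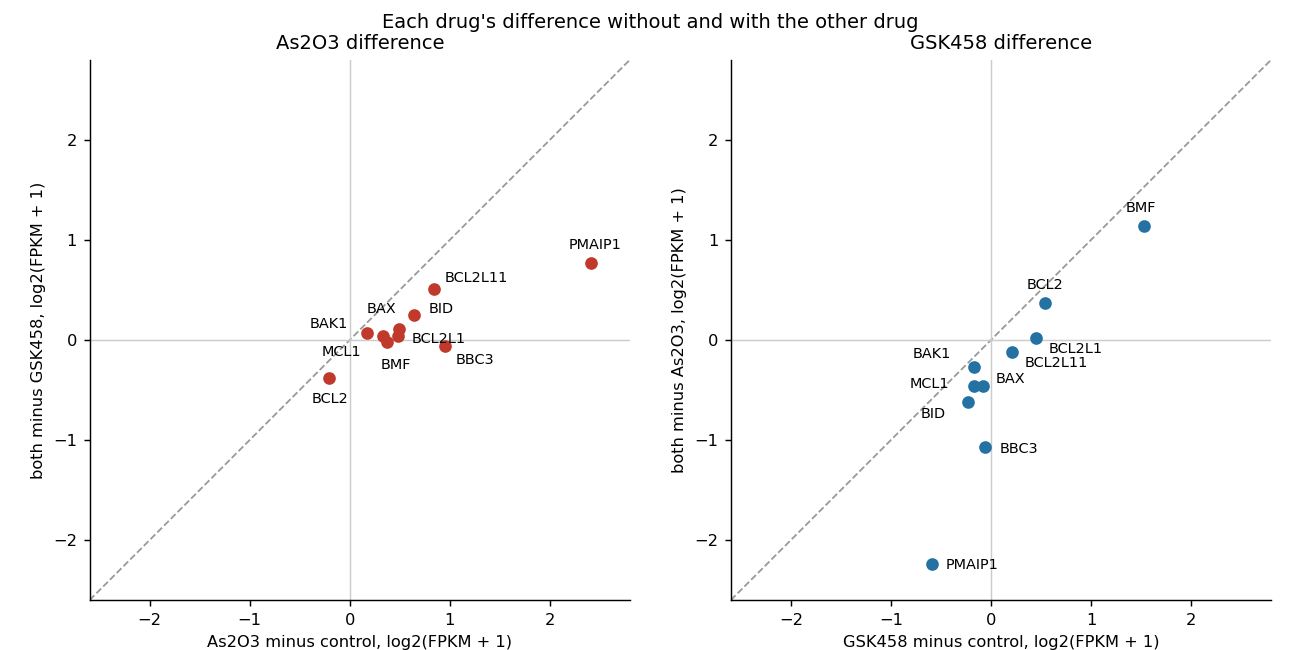
Difference in log2(FPKM + 1) of each member for As2O3 (left) and GSK458 (right), without the other drug on the horizontal axis and in its presence on the vertical axis, 1 point per member. The dashed line marks equal differences and all 10 members lie under it, PMAIP1 farthest (0.76 with and 2.41 without GSK458) and BAK1 closest.

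When the drugs were compared directly, As2O3 was at least 2-fold above GSK458 at 2 members and below it at 1 (4.8% and 2.6% of all genes). PMAIP1 was 15.3 times as high with As2O3 and BBC3 2.07 times (1.01), while BMF was at 0.426 of the GSK458 level (−1.15). BCL2 was at 0.497 of the GSK458 level, which is −0.75 on the log2(FPKM + 1) scale. The BBC3 difference was 0.92 to 0.99 with upper-quartile and median-of-ratios scaling and 0.89 with a pseudocount of 5 FPKM, under 2-fold in each.

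At a lower mark of 1.5-fold, more of the BH3-only genes were counted, and so were more of all genes. PMAIP1, BBC3, BCL2L11 and BID were higher with As2O3 than in the control and 0 members lower, against 7.43% and 6.45% of all genes. With GSK458, BMF was higher and PMAIP1 lower than in the control (8.61% and 10.3% of all genes). With both drugs, BMF and BCL2L11 were higher and 0 members lower (9.93% and 11.7%). Against As2O3, the combination was higher at BMF and lower at PMAIP1, BBC3 and BID (9.46% and 11.6%). Against GSK458, it was higher at PMAIP1 and lower at 0 members (2.19% and 1.53%). As2O3 was above GSK458 at PMAIP1, BBC3, BCL2L11 and BID and below it at BMF and BCL2 (12.0% and 9.96%). PMAIP1 and BBC3 departed downward from additivity and 0 members upward, where 7.57% of all genes departed downward and 6.53% upward.

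Of the 3 members at least 2-fold apart in a comparison, PMAIP1 and BBC3 were highest with As2O3 alone. BMF was high in both libraries with GSK458. For each member the 5 closest genes were found among the 9155 genes whose mean was 5 FPKM or more. Closeness was the Euclidean distance between the 3 log2 differences from the control, over 4 libraries. For PMAIP1 the closest gene was FOS, a subunit of the AP-1 transcription factor, at a distance of 0.16, with 14.5 FPKM with As2O3, 1.18 with GSK458, 2.78 with both drugs and 2.13 in the control. CHAC1, a glutathione-degrading enzyme of the ATF4 response, followed at 0.24, and TRIB3, a pseudokinase of the same response, at 0.53. PHLDA2 (0.54) and the amino acid transporter SLC7A5 (0.70) completed the set. All 5 were highest with As2O3 and below the control with GSK458, as PMAIP1 was, a likeness that the choice by distance builds in. For BBC3 the set included UBA2, TNFRSF10B, SNAPC1 and MED30, at distances of 0.13 to 0.14. TNFRSF10B, the TRAIL receptor DR5, stood at 105 FPKM with As2O3, 51.6 FPKM with GSK458, 55.4 FPKM with both drugs and 55.6 FPKM in the control. For BMF it was SHC2, MSLN, HSBP1L1, ZNF581 and COL7A1, at 0.15 to 0.21. MSLN, the tumour surface protein mesothelin, was at 5.59 FPKM with As2O3, 13.0 FPKM with GSK458, 15.2 FPKM with both drugs and 4.30 FPKM in the control.

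**Figure D5:**
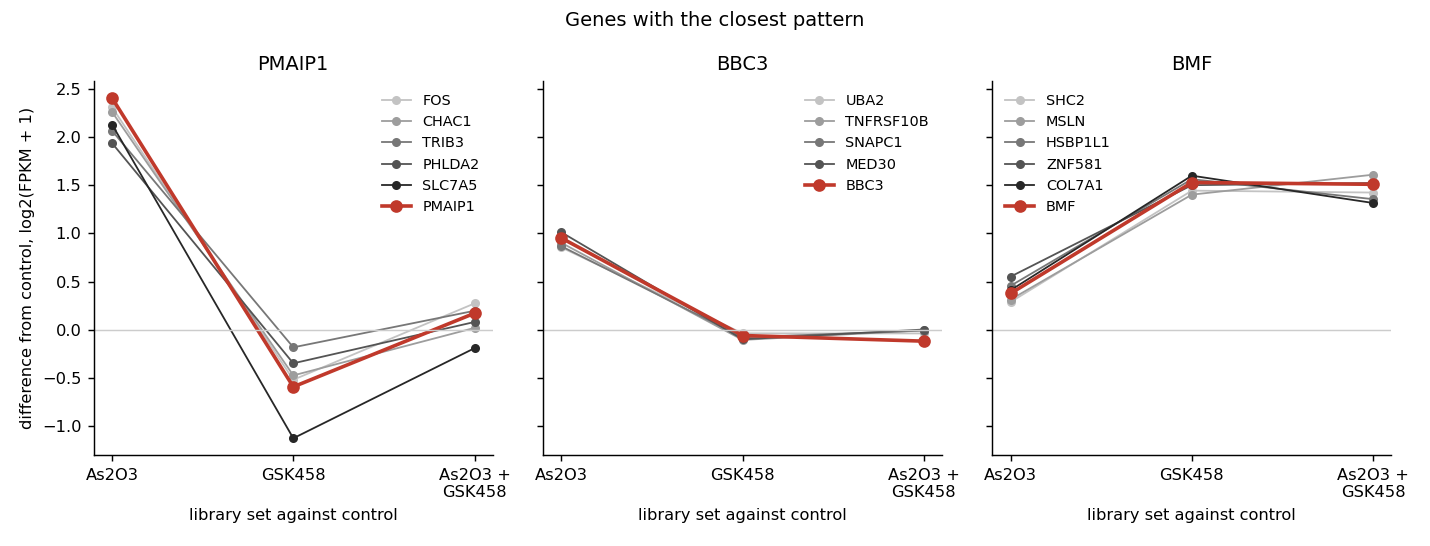
Differences from the control in log2(FPKM + 1) for PMAIP1, BBC3 and BMF (red) and genes closest to each (grey, 5 for PMAIP1 and BMF and 4 for BBC3), with lines joining the As2O3, GSK458 and combination libraries only to guide the eye. PMAIP1 and BBC3 peak with As2O3 alone at 2.41 and 0.95, and BMF is at 1.53 with GSK458 and 1.51 with both drugs.

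Another 15 genes of the family and its relatives were listed. BCL2A1 was at 0 in every library, and HRK, BCL2L14 and BCL2L15 were also under a mean of 1 FPKM, which left 11. Their median difference from the control was 0.06 with As2O3, 0.03 with GSK458 and 0.21 in the combination. For all genes it was 0.01, −0.01 and −0.01. With As2O3 0 of the 11 were at least 2-fold apart, where 2.07% of all genes were higher and 1.41% lower. The 2 with the largest differences were BCL2L13 (0.72) and BIK (−0.39). BCL2L12 was at 26.0 FPKM with As2O3, 8.64 FPKM with GSK458, 8.41 FPKM with both drugs and 20.7 FPKM in the control. It was the 1 relative at least 2-fold lower, with GSK458 (−1.17) and with both drugs (−1.20), where 3.87% and 4.31% of all genes were. It was also −1.52 in the combination against As2O3, where 4.27% of all genes were at least 2-fold lower. With As2O3 against GSK458 it was 1.49, where 4.8% were at least 2-fold higher. BCL2L10, a scarce pro-survival relative, was at 1.12, 0.699, 1.45 and 1.52 FPKM in these libraries, and it and BNIP3 led the difference of the combination from GSK458, at 0.53 and 0.28. The largest departures from additivity were 0.78 for BCL2L10 and −0.68 for BCL2L13.

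At the mitochondrion and downstream of it, 16 of 16 listed genes were measured, among them the outer membrane channels VDAC1, VDAC2 and VDAC3. With As2O3 0 were at least 2-fold apart, where 2.07% of all genes were higher and 1.41% lower. Their median difference from the control was 0.01 with As2O3, −0.13 with GSK458 and −0.19 in the combination. For all genes it was 0.01, −0.01 and −0.01. With As2O3, VDAC3, a channel of the outer membrane, was at −0.60 and the executioner CASP6 at −0.51. With GSK458 and with both drugs 1 was at least 2-fold lower, where 3.87% and 4.31% of all genes were. It was AIFM1, a mitochondrial flavoprotein that can enter the nucleus in cell death. AIFM1 was at 41.4 FPKM with As2O3, 24.6 FPKM with GSK458, 21.9 FPKM with both drugs and 50.9 FPKM in the control. CYCS, cytochrome c itself, was at 28.5, 18.9, 18.5 and 34.2 FPKM, values made uncertain by its processed pseudogenes. The combination differed from As2O3 by −0.89 for AIFM1 and −0.60 for CYCS. The largest differences of the combination from GSK458 were −0.33 for the protease HTRA2 and −0.16 for AIFM1. With As2O3 against GSK458 they were 0.73 for AIFM1 and 0.60 for the initiator CASP9, and VDAC3 and CASP6 both departed from additivity by 0.56.

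Of the 10 genes that act on MCL1, BIM or BMF protein, 0 were at least 2-fold apart in any of the 7 comparisons. In those comparisons 0.318% to 4.8% of all genes were apart in a given direction. The median of the 10 was −0.08 with As2O3, −0.14 with GSK458 and −0.13 in the combination. For all genes it was 0.01, −0.01 and −0.01. DYNLL1, the dynein light chain that holds BIM, was at 242 FPKM with As2O3, 304 FPKM with GSK458, 280 FPKM with both drugs and 378 FPKM in the control. USP13, a deubiquitinase that stabilises MCL1, differed from the control by −0.37 with As2O3, by −0.79 with GSK458 and by −0.69 in the combination. HUWE1, the MCL1 ubiquitin ligase also called MULE, was at −0.47 with GSK458 and 0.56 with As2O3 against GSK458. BTRC, a substrate receptor of another ligase, was at 0.47 in the combination against As2O3 and −0.45 with As2O3 against GSK458. The combination was 0.19 for HUWE1 and 0.14 for the deubiquitinase USP9X against GSK458, and DYNLL1 and USP13 departed from additivity by 0.53 and 0.47.

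Among 11 transcription factors reported to act on BH3-only genes, 10 passed the filter (TP73 did not). With As2O3, 4 were at least 2-fold higher and 0 lower, where 2.07% and 1.41% of all genes were. Their median was 0.49 with As2O3, 0.43 with GSK458 and 0.33 in the combination, against 0.01, −0.01 and −0.01 for all genes. The 4 higher with As2O3 were ATF3 (2.94), DDIT3 (2.84), MYC (1.07) and ATF4 (1.07). With GSK458, 0 were higher and 1 lower, E2F1 (−2.19), against 2.35% and 3.87% of all genes. With both drugs ATF3 was higher (1.28) and E2F1 lower (−1.93), against 3.25% and 4.31%. The 4 factors higher with As2O3 were above the control with GSK458 too, each by less than 2-fold. They were MYC (0.95), ATF4 (0.93), ATF3 (0.76) and DDIT3 (0.24). With both drugs ATF4 (0.80), DDIT3 (0.52) and MYC (0.33) stood above the control by less than 2-fold. In the combination against As2O3, DDIT3 (−2.32), E2F1 (−1.91) and ATF3 (−1.66) were lower, where 4.27% of all genes were. With As2O3 against GSK458, DDIT3 (2.61), ATF3 (2.18) and E2F1 (2.17) were higher, where 4.8% of all genes were. At least 2-fold below additivity were 5 of the 10, against 2.05% of all genes, among them −2.56 for DDIT3, −2.42 for ATF3, −1.70 for MYC and −1.20 for ATF4. In the combination against GSK458, MYC was at −0.62 and ATF3 at 0.52. FOXO1 was at 15.5 FPKM with As2O3, 28.6 FPKM with GSK458, 29.4 FPKM with both drugs and 19.5 FPKM in the control. Its differences from the control were −0.31, 0.53 and 0.57, and a link to any member was not tested. FOXO3 differed from the control by 0.06 with As2O3, by 0.35 with GSK458 and by 0.33 in the combination.

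Promoter windows were found for 9 of 10 members, of which MCL1 was not one. In both directions 5 motifs were searched, over windows of 27305 genes. The half-site TGACG was in a window of 5 of the 9 members (PMAIP1, BMF, BAX, BCL2L1 and BCL2) and of 28.4% of all genes. The full site TGACGTCA, which contains that half-site, and the ATF4 composite motif TGATGNAA were in 0 of 9, against 2.25% and 4.46% of all genes. GTAAACA, a FOXO motif, was in BCL2L11 at positions −223 to −217, and in 4.19% of all genes. The antioxidant response element TGACNNNGC was in the windows of BAX and BCL2L1 and in 16.1% of all genes. A match is only a run of letters and not a bound site.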

How the data were processed

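RNA of 4 TOV21G cultures, 1 per group, was sequenced after column purification and a stranded poly(A) mRNA library preparation, per the labels' protocols. FPKM values for 26255 genes were deposited by the authors in 1 table, used as it stands. The submitters' processing notes name Cuffdiff 2.2.1, TopHat2 2.1.1, SAMtools 0.1.18, Bowtie2 2.2.8 and the build hg19, without roles. No source used here gives the annotation, the strand setting or the handling of multi-mapped reads. Depth is unknown, so values carry no counting interval.

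Groups and doses came from the labels. Differences of log2(FPKM + 1) were taken for the 12260 genes whose mean was 1 FPKM or more, in 6 pairs of libraries and the departure from additivity, with Python 3.11.15 and pandas 2.3.3. The code was tested on simulated data. No test was possible with 1 library per group. Alternatives were 3 rescalings, a 1.5-fold mark, a filter at a mean of 5 FPKM or none, and pseudocounts of 0.1 or 5 FPKM.

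The members and gene lists were chosen with earlier results of these data known. The text names all members. From each pathway list it names up to 4 genes each way at least 2-fold apart (otherwise the 2 largest) in each comparison, besides the 5 genes closest to each member at least 2-fold apart in a pair. FOXO1, FOXO3, MIR4435-2HG and ABALON were added with their values seen. Some genes that this rule takes in are not reported here. Promoter sequences are from RefSeq (GRCh38.p14), and overlaps from GENCODE 29.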

Additional observations from a re-analysis of the deposited data

Results flagged for a closer look

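A drug's difference had opposite signs without and with the other drug at 3 members, and no such difference was tested. The share of all genes with opposite signs was not computed. For As2O3, BBC3 was 0.95 above the control but −0.059 from GSK458 alone when both drugs were given. BMF was 0.38 above the control with As2O3, and the combination was −0.019 from GSK458 alone. With each library rescaled to the same sum the second value was 0.03, so the signs were then the same. For GSK458, BCL2L11 was 0.21 above the control, and the combination was −0.12 from As2O3 alone.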

How the results depend on the processing

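No paired analysis was possible because each group had 1 library and the labels give no replicate numbers to share. Of 476 recomputed member differences, 459 kept their sign and their side of the 2-fold mark, 11 dropped under it, 1 passed it and 5 changed sign to a value within 0.07 of 0 (with sums made equal, BMF in the combination against GSK458, BID and BAX in the combination against the control, and BAK1's departure, and with upper-quartile scaling, BCL2L1 with As2O3 against GSK458). Of the 459, the 70 with no filter and the 56 with a mean of at least 5 FPKM could not change. A filter leaves a member's difference as it was, so these say nothing about stability. With a pseudocount of 5 FPKM, the combination against As2O3 had 0 members higher and 1 lower, As2O3 against GSK458 had 1 higher and 0 lower, and 1 departed downward. With a mean of at least 5 FPKM, which leaves out PMAIP1 and BCL2, 0 members were higher with As2O3 than in the control (191 of 9155 genes). There, 1 was lower in the combination than with As2O3 (389 genes) and 1 was higher with As2O3 than with GSK458 (438 genes). In that setting 1 departed downward (165 genes). With a pseudocount of 0.1 FPKM, 1 member was higher in the combination than with GSK458, where 170 of 12260 genes were. As2O3 against GSK458 had 1 member higher with median-of-ratios scaling (567 of 12260 genes) and with upper-quartile scaling (510 genes). Upper-quartile scaling left 1 lower in the combination than with As2O3 (451 genes). Each of the 3 rescalings left 1 downward departure, where 215 genes departed downward with equal sums, 244 with median-of-ratios and 232 with upper-quartile scaling. At a 1.5-fold mark, 4 members were higher with As2O3 than in the control (7.43% of all genes), 1 was lower with GSK458 (10.3%), 2 were higher with both drugs (9.93%), 3 were lower in the combination than with As2O3 (11.6%), 1 was higher in the combination than with GSK458 (2.19%), and As2O3 against GSK458 had 4 higher and 2 lower (12.0% and 9.96%). The cause of these changes beyond the mark or filter itself was not tested. Rescaling to equal sums moved the median of all genes by −0.11 for GSK458 and 0.13 for the departure, whose split of 163 upward and 251 downward genes became 351 and 215, and As2O3 against the control went to 246 higher and 292 lower, against 254 and 173. Counts over all genes also moved by over 1.5 times with the pseudocount, such as 138 higher and 50 lower with As2O3 at 5 FPKM. Members under 5 FPKM (PMAIP1 outside the As2O3 library, and BCL2) are the least certain.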
